A study of Rattus norvegicus with 12 samples.

Results

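Noradrenaline and adrenaline act on the heart through adrenergic receptors, and the amines are then cleared by uptake and by enzymes that break them down. The measurements below cover 7 genes of this system in the rat left ventricle, with 4 receptors (Adrb1, Adra1a, Adra1b and Adra1d) and 3 oxidases or oxidase-like enzymes (Maoa, Maob and Rnls). The genes were a named set, and each was found as all array probes whose target identifier maps to its rat symbol. This gave 1 probe for each gene, 7 of the 30367 probes on the array, for 7 of the 15715 genes with a symbol there. All 7 probes were well above background on all 12 arrays, so none was lost to the filter on dim probes. The set was chosen by catecholamine function and with earlier values in view: Rnls was selected on its higher level under angiotensin II on normal sodium, and which values, if any, chose the other genes is not stated. All differences of the 7 genes are therefore given as descriptions.

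Beta-1 receptors (Adrb1) couple through Gs to adenylyl cyclase and cAMP, and in the heart muscle cell they raise rate and force of contraction. Alpha-1 receptors couple through Gq to phospholipase C. The subtypes Adra1a and Adra1b are known from cardiac muscle cells, and Adra1d chiefly from vascular smooth muscle. Monoamine oxidases A and B (Maoa, Maob) sit on the outer mitochondrial membrane and deaminate amines, with release of hydrogen peroxide. Rnls encodes renalase, a flavoprotein first described as a secreted amine oxidase of the kidney, a role that later work has disputed.

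Left ventricles came from male Sprague-Dawley rats that all ate a diet with 60% fructose for 8 weeks, at 0.64% NaCl (normal sodium) or under 0.01% NaCl (low sodium). The labels give 40 rats per diet and no age. For the last 4 weeks rats received angiotensin II (AngII), the vasoconstrictor peptide of the renin-angiotensin system, subcutaneously at 200 ng/kg/min, or no infusion; no vehicle infusion is named. There were 3 one-colour arrays in each of the 4 groups (either diet, without or with AngII), with no pooling of animals stated. Rats without fructose were not analysed here, so every value is relative to other fructose-fed rats.

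Levels are log2 of the processed fluorescence signal minus the 75th percentile of the same array, which lay between 1399 and 1988 intensity units. A level of 0 is thus the 75th percentile, and levels of different probes are not comparable. All 7 genes of the ventricular muscle cell list were well above background on all 12 arrays, and so were the 4 tested genes of the atrial list. Arrays lay on 3 slides, each with 1 array of every group, and every group always held the same position on its slide, so position and group cannot be told apart. The normal sodium array of replicate 1 stood apart, with 88 non-uniform spots against 0 to 3 on the other arrays and the lowest array weight, 0.279. In a limma fit over all arrays with Benjamini-Hochberg adjustment, 0 of 20020 probes (0%) passed an adjusted p of 0.05 in each of 7 comparisons, and so did none of the 7 genes. At an unadjusted p under 0.05 the probe counts were 1453 (7.26%) for AngII on normal sodium, 342 (1.71%) for AngII on low sodium, 1407 (7.03%) for low sodium without AngII and 2223 (11.1%) for low sodium with AngII. They were 576 (2.88%) for the mean AngII effect, 2508 (12.5%) for the mean low sodium effect and 1014 (5.06%) for the interaction. Differences are given ± the limma standard error (3 arrays per group) and on the log2 scale.

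The beta-1 receptor gene Adrb1 had almost the same mean level in the 4 groups. Its levels were -2.83, -3.49 and -3.27 on normal sodium, and -2.77, -3.32 and -3.06 with AngII on that diet. They were -3.17, -3.46 and -3.03 on low sodium, and -2.83, -3.38 and -3.37 with AngII on that diet. The ranges of all groups overlapped, and within each group the array on slide 2 was the lowest. AngII differed from no infusion by 0.15 ± 0.22 on normal sodium and by 0.02 ± 0.22 on low sodium. Low sodium differed from normal sodium by -0.02 ± 0.22 without AngII (of the other sign, 0.32, in the authors' values) and by -0.15 ± 0.22 with it. The 95% interval of the first of these 4 differences ran from -0.34 to 0.64, and that of the mean low sodium effect from -0.43 to 0.26. With slide as a block the standard error of these 4 differences was 0.14.

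Adra1a, an alpha-1 receptor of cardiac muscle cells, varied least of the 7 genes over the 12 arrays, with a range of 0.55. Its levels were -1.58, -2.13 and -1.83 on normal sodium and -1.97, -1.90 and -2.02 with AngII added. On low sodium they were -2.09, -2.04 and -1.72, and with AngII -1.81, -1.83 and -2.04. The highest and the lowest of the 12 values both lay in the normal sodium group, and no pair of groups separated. All 4 differences between group pairs lay between -0.11 and 0.07, with a standard error of 0.15. The mean low sodium effect was -0.02, with a 95% interval from -0.26 to 0.23.

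The Adra1b probe was also similar across groups, with 1 exception among the arrays. Levels were 3.31, 3.73 and 4.00 on normal sodium, and 3.73, 2.77 and 3.80 with AngII on that diet. They were 3.93, 3.95 and 3.64 on low sodium, and 4.02, 3.70 and 3.62 with AngII on that diet. The array of normal sodium with AngII, replicate 2, gave the lowest of the 12 values. Under AngII, low sodium was 0.35 ± 0.27 above normal sodium, and 0.02 above it without that array. AngII on normal sodium differed by -0.25 ± 0.27, which turned to 0.09 without the same array. The other differences were 0.16 ± 0.27 for low sodium without AngII, which was -0.02 without replicate 1 of normal sodium, and -0.06 ± 0.27 for AngII on low sodium.

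Adra1d, the alpha-1 subtype of vascular smooth muscle, was the receptor gene that varied most. Levels were -0.33, -0.20 and 0.56 on normal sodium, and -1.09, -0.55 and 0.46 with AngII on that diet. They were -0.16, 0.25 and 0.07 on low sodium, and 0.23, 0.39 and 0.00 with AngII on that diet. On normal sodium, with or without AngII, the slide 3 arrays were the highest, and the ranges of all groups overlapped. Low sodium exceeded normal sodium by 0.60 ± 0.35 under AngII (95% interval -0.18 to 1.38), with values within slides of 1.32, 0.94 and -0.46. Leaving out 1 array moved this difference from 0.25 (without replicate 1 of normal sodium with AngII) to 1.03 (without its replicate 3). Without AngII the diets differed by 0.04 ± 0.35. AngII gave 0.16 ± 0.35 on low sodium and -0.40 ± 0.35 on normal sodium, where leaving out 1 array gave -0.83 to -0.06.

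Smooth muscle markers are given beside these values. The 6 genes of that list, all tested and 4 of them well above background on all 12 arrays, had a summed level, in multiples of the array's 75th percentile, of 16.8 to 19.6 on normal sodium, 19.8 to 20.2 when AngII was added, 19.8 to 20.5 on low sodium and 17.3 to 21.2 when AngII was added there. Of the 6, with 0 called, all 6 were above 0 for AngII on normal sodium (median 0.62, Adra1d -0.40) and for low sodium without AngII (median 0.59, Adra1d 0.04). For AngII on low sodium 1 was above 0 (median -0.09, Adra1d 0.16), and for low sodium with AngII none was (median -0.12, Adra1d 0.60). Their part in the Adra1d values was not tested, and in whole ventricle fewer cells of a type and less RNA per cell cannot be told apart.

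**Figure D1:**
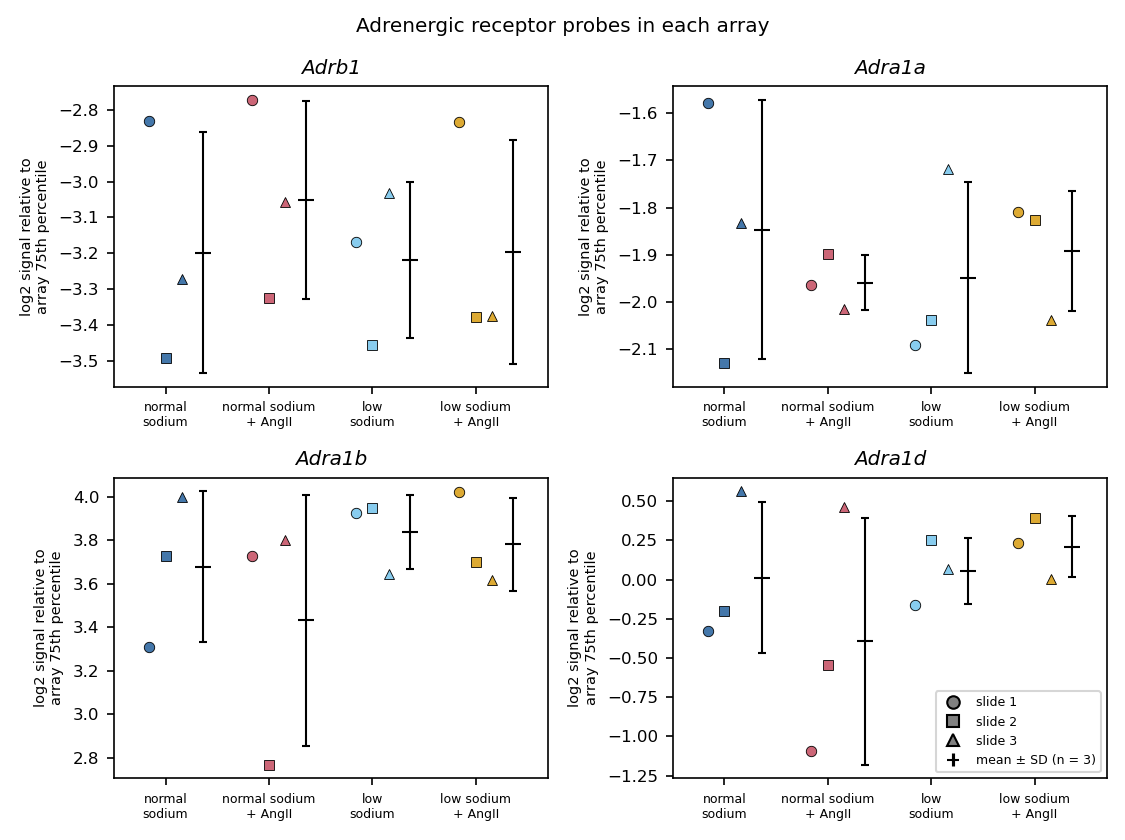
Levels of the 4 adrenergic receptor probes (vertical axes, log2 signal relative to the array's 75th percentile) in the 4 groups (horizontal axes), 1 symbol per array with its shape for the slide and black bars for the group mean ± SD (n = 3). The ranges of the groups overlap for every receptor; slide 2 (squares) is lowest in each group for Adrb1, and the normal sodium with AngII array of replicate 2 is lowest for Adra1b, at 2.77.

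The monoamine oxidases deaminate amines in mitochondria. Maoa and Maob lie next to each other on the X chromosome, with 0 protein-coding genes between them, and in the RefSeq promoter table (assembly GRCr8) they start on opposite strands. Their upstream sequences are shown because they are the neighbouring members whose mean differences had the same sign in 3 of the 4 comparisons of group pairs. Below are the 250 bases before each start, 5′ to 3′ on the strand of the gene, with each GC box (GGGCGG, on either strand) in capitals. Maoa lies at chrX:8681373-8681622 on the minus strand and Maob at chrX:8490155-8490404 on the plus strand.
Maoa: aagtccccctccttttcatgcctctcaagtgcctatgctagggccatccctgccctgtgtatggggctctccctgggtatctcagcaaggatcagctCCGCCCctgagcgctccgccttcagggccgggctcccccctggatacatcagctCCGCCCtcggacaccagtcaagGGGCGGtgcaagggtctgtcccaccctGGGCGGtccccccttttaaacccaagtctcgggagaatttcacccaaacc
Maob: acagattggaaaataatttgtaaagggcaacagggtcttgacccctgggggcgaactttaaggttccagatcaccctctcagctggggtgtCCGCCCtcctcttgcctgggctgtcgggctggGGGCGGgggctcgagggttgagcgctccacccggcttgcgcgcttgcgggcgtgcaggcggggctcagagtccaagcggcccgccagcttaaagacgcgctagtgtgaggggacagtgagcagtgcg

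The Maoa window held 4 such GC boxes and the Maob window 2. At least 1 was present in 30.5% of the 33469 promoters of the table, and the windows of Adrb1, Adra1b, Adra1d and Rnls held 0. Of the 7 genes 6 had an entry, all but Adra1a. Another 3 motifs, each searched on both strands, had 0 copies in all 6 windows. The GATA factor motif AGATAA was present in 10.3% of promoters. The cAMP response element TGACGTCA was present in 1.59%. A steroid hormone receptor motif, AGAACA, was present in 17.5% of them. A match is a run of letters, not a bound site. The Rnls window had the lowest base composition in G or C, 44% against 62.4% to 72% in the other 5 windows and a median of 51.2% over the table. The Rnls window held 0 CpG dinucleotides, against 9 to 24 in the others.

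Maoa levels were lower on average on low sodium, in arrays that varied widely. They were 1.96, 1.49 and 1.54 on normal sodium, and 1.51, 1.92 and 2.31 with AngII on that diet. On low sodium they were 1.55, 0.96 and 1.45, and on low sodium with AngII 0.62, 0.97 and 2.14. The last of these, on slide 3, was the second highest of all 12 values while the other 2 arrays of its group were among the 3 lowest, and no pair of groups separated. Low sodium differed from normal sodium by -0.34 ± 0.36 without AngII (-0.16 without replicate 2 of low sodium) and by -0.67 ± 0.36 with AngII. The mean low sodium effect was -0.51 ± 0.25 (95% interval -1.06 to 0.05, adjusted p = 0.442 in the limma fit), a 1.42-fold lower level. It was negative within each slide, at -0.65, -0.74 and -0.13, as 41.1% of the probes scored had 1 sign on all 3 slides. Under AngII the difference ranged from -0.36 without replicate 1 of low sodium with AngII to -1.12 without its replicate 3. AngII differed from no infusion by 0.25 ± 0.36 on normal sodium and by -0.08 ± 0.36 on low sodium.

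Maob had a smaller mean low sodium effect in the same direction, and its levels varied less within groups (SD 0.245, against 0.490 for Maoa). Its levels were -3.07, -2.86 and -3.17 on normal sodium, and -3.13, -2.97 and -2.94 with AngII on that diet. They were -3.38, -3.59 and -3.14 on low sodium, and -2.94, -3.39 and -3.72 with AngII on that diet. All 6 normal sodium arrays lay between -3.17 and -2.86, while the low sodium arrays reached from -3.72 to -2.94 and so overlapped them. The mean low sodium effect was -0.34 ± 0.14 (95% interval -0.64 to -0.04, adjusted p = 0.337 in the limma fit), 1.27-fold lower. It was -0.06, -0.58 and -0.38 within slides. The diets differed by -0.34 ± 0.19 both without and with AngII, and the interaction was 0.00 ± 0.27. Within slides the diets differed by -0.32, -0.73 and 0.03 without AngII, and by 0.19, -0.42 and -0.78 with it. For Maoa these slide values were negative on all 3 slides in both comparisons. With AngII, the difference was -0.15 without replicate 3 of low sodium with AngII and -0.54 without its replicate 1. AngII itself differed by 0.02 ± 0.19 on either diet.

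Macrophage and fibroblast markers also had lower summed levels on low sodium, with 0 of their genes called. The sums of other non-muscle lists were not all lower. The 5 macrophage markers, all well above background on all 12 arrays, had a summed level, again in multiples of the 75th percentile, of 0.96 to 1.20 and 1.13 to 1.27 on normal sodium without and with AngII, against 0.594 to 0.918 and 0.784 to 0.825 on low sodium. For the 5 fibroblast markers the sums were 30.6 to 34.1 and 31 to 33.5 against 25.4 to 28.7 and 25.8 to 30.7. None of the macrophage markers was above 0 in either low sodium comparison, with medians of -0.42 without AngII and -0.61 with it. The same held for the 6 endothelial markers (medians -0.33 and -0.25) and the 2 tested adipocyte markers (-0.31 and -0.35). Of the 6 sympathetic nerve markers 3 and 1 were above 0 in these comparisons, and of the 4 pericyte markers 2 and 2. The 6 sympathetic nerve markers, in a sum, lay at 1.61 to 2.72 and 2.09 to 2.65 on normal sodium and 1.87 to 2.37 and 1.64 to 2.21 on low sodium. The 4 pericyte markers, summed likewise, lay at 13 to 15.1 and 14.8 to 17.2 against 14.7 to 16 and 14.6 to 16.2. The part of these cells in the Maoa and Maob values was not tested.

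Rnls, the renalase gene, was the member whose groups separated. Its levels were -0.97, -1.03 and -1.12 on normal sodium, and -0.44, -0.29 and -0.14 with AngII on that diet. On low sodium they were -0.55, -0.88 and -0.78, and on low sodium with AngII -0.60, -0.71 and -0.76. The 3 normal sodium arrays were the lowest and the 3 of normal sodium with AngII the highest of all 12, and both low sodium groups lay between them and overlapped each other. In order, the groups stood at -0.29 ± 0.15, -0.69 ± 0.08, -0.73 ± 0.17 and -1.04 ± 0.07 (mean ± SD, n = 3) for normal sodium with AngII, low sodium with AngII, low sodium and normal sodium. The within-group SD of Rnls, 0.126, was the smallest of the 7 genes (0.185 to 0.490 in the others), and 12.7% of all tested probes had a smaller one.

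AngII on normal sodium thus gave a Rnls level 0.75 ± 0.12 higher, or 1.68-fold. This is the difference for which Rnls was known, so no test is given. Within slides it was 0.53, 0.74 and 0.98, and over the alternatives it ran from 0.68 to 0.91. AngII on low sodium gave 0.04 ± 0.12 (95% interval -0.23 to 0.31), with slide values of -0.06, 0.17 and 0.01. Low sodium gave 0.31 ± 0.12 without AngII (0.44 in the authors' values) and -0.40 ± 0.12 with AngII, with 1 sign on all 3 slides in each. These comparisons share arrays with the first and add no support to it. Rnls was the 1 member of 7 with separated groups in AngII on normal sodium, low sodium without AngII and low sodium with AngII, and there was no such member in AngII on low sodium. Of all probes, 13.0%, 10.9%, 22.2% and 6.12% had separated groups in these comparisons, in that order.

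**Figure D2:**
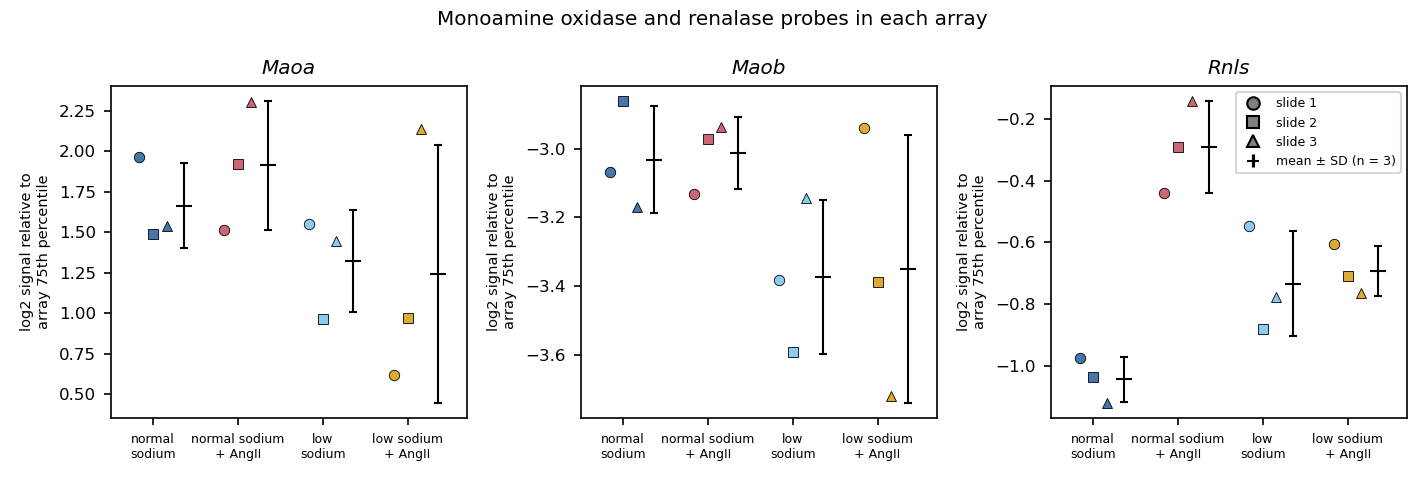
Levels of the Maoa, Maob and Rnls probes (vertical axes, log2 signal relative to the array's 75th percentile) in the 4 groups (horizontal axes), 1 symbol per array with its shape for the slide and black bars for the group mean ± SD (n = 3). Low sodium arrays of Maoa and Maob overlap those on normal sodium, while Rnls separates normal sodium (-1.12 to -0.97) and normal sodium with AngII (-0.44 to -0.14) from the other groups.

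Of the 3 genes whose pattern over the 12 arrays was most like that of Rnls, 2 are genes of red cells and their precursors. Among 11127 genes with a symbol, the 3 highest Pearson correlations were with Mkrn1, a ubiquitin ligase gene (r = 0.949), Hbb-b1, a beta-globin gene (r = 0.947), and Alas2, the first enzyme of haem synthesis in red cell precursors (r = 0.941). Hbb-b1 levels were 6.60, 6.27 and 6.40 on normal sodium, 7.30, 7.36 and 7.47 when AngII was added, 7.14, 6.73 and 6.65 on low sodium, and 7.03, 6.89 and 7.08 with AngII on that diet. Its groups stood in the same order as those of Rnls. AngII on normal sodium gave 0.95 ± 0.15 for Hbb-b1, 1.53 ± 0.26 for Alas2 and 0.63 ± 0.12 for Mkrn1, and AngII on low sodium gave 0.16, 0.12 and 0.06.

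The red cell list held 5 genes, of which Hbb, Hbb-b1 and Alas2 had a tested probe and were well above background on all 12 arrays; Hba1 and Hba2 were not analysed here. Their summed level was 129 to 165 times the 75th percentile on normal sodium, 250 to 288 when AngII was added, 160 to 224 on low sodium and 185 to 210 when AngII was added there. The points share group, array and slide, and after the group means were removed the correlations of Rnls with Mkrn1, Hbb-b1 and Alas2 were 0.631, 0.687 and 0.677. Without the 2 arrays farthest from the Rnls median the values were 0.925, 0.931 and 0.919. The part of red cell RNA in the Rnls values was not tested.

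**Figure D3:**
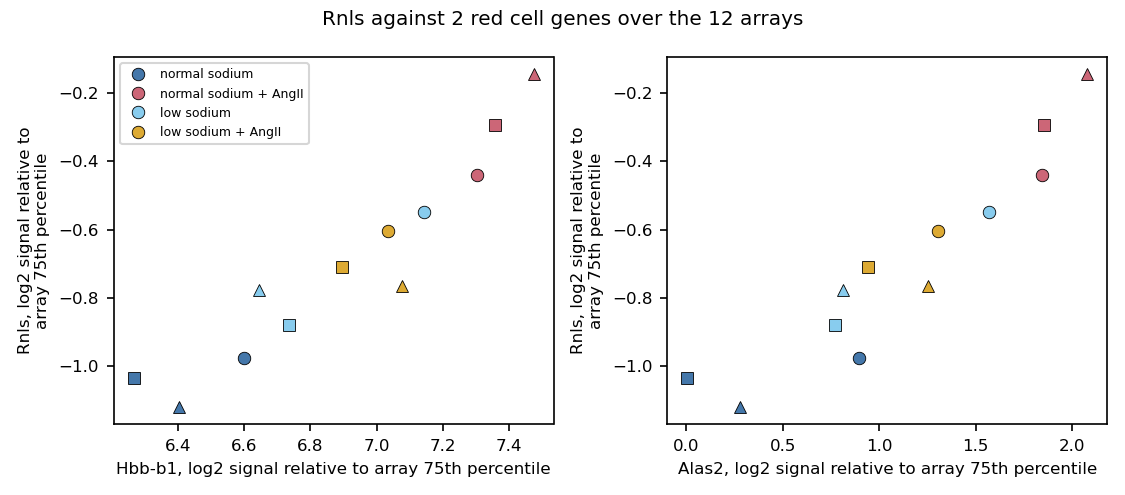
Rnls level (vertical axes) against Hbb-b1 (left) and Alas2 (right) levels, all as log2 signal relative to the array's 75th percentile, 1 symbol per array, coloured by group and shaped by slide. The 12 arrays lie along a rising line in both panels (r = 0.947 and 0.941), with normal sodium at the lower end and normal sodium with AngII at the upper end.

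For the other 6 genes the most similar patterns were found by the same measure, and they describe these 12 arrays only. Adrb1 was most like Henmt1 (r = 0.944), Rgs16 (0.931) and Pdzk1ip1 (0.928), and with group means removed these correlations were 0.949, 0.926 and 0.951. Adra1a was closest to Rasl10a (0.909), Atosa (0.908) and L3mbtl2 (0.899). Adra1b was closest to Nup160 (0.935), Obi1 (0.925) and Vps37b (0.886), of which the first was 0.608 without the 2 arrays farthest from the Adra1b median. Adra1d was closest to Prxl2b (0.873), Mapk8 (0.844) and Palb2 (0.833). Maoa was closest to Smc4 (0.825), to Rgs18 (0.795) and to P2ry12 (0.794), a purinergic receptor gene known from platelets and microglia. Maob was closest to Tln2, which encodes talin 2 (0.952), Pepd (0.913) and Fam20c (0.900).

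Set side by side, the 7 genes did not share a direction in any comparison of group pairs. Differences were above 0 for 4 of 7 genes for AngII on normal sodium and for 5 of 7 for AngII on low sodium, with medians of 0.02 and 0.02. Low sodium gave 3 of 7 without AngII (median -0.02) and 3 of 7 with AngII (median -0.15). Over all 11211 genes tested the medians were 0.02, -0.01, -0.02 and -0.05, and the shares above 0 were 52.7%, 45.7%, 46.9% and 42.6%. The comparisons share arrays, so they are not independent. A single sign on all 3 slides was seen for 3, 0, 2 and 3 of the 7 genes, against 30.4%, 16.9%, 28.4% and 41.0% of the probes scored.

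**Figure D4:**
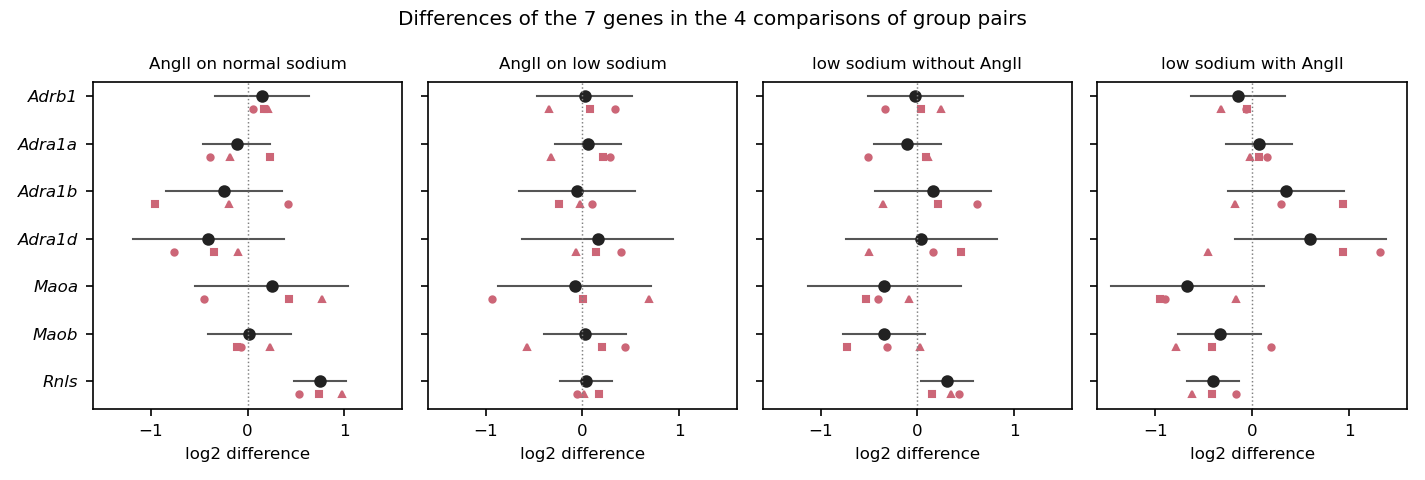
Log2 differences of the 7 genes (rows) in the 4 comparisons of group pairs (panels), with black points for the limma estimate, grey bars for its 95% interval and small red symbols for the difference within each slide (circle 1, square 2, triangle 3). The receptor intervals all include 0. The Rnls estimates, shown as a description, are 0.75, 0.04, 0.31 and -0.40 from left to right.

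Among further adrenergic receptor genes, Adrb3, Adra2a and Adra2c were on the array but too dim to be tested, and Adra2b differed by at most 0.18 in size (± 0.21) in the comparisons of group pairs.

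Genes of catecholamine synthesis and uptake gave small differences. Th, the rate-limiting enzyme of synthesis, had group means of -1.86, -1.63, -1.92 and -1.95 (normal sodium without and with AngII, then low sodium likewise), and Dbh, which makes noradrenaline, of -1.57, -1.61, -1.80 and -1.53. Slc6a2, the neuronal noradrenaline transporter, lay at -4.00, -3.92, -4.09 and -4.01. The largest difference among these 3 genes and Pnmt, which makes adrenaline, was smaller in size than 2 standard errors. Ddc, the aromatic amino acid decarboxylase, was 0.45 ± 0.13 higher on low sodium with AngII than on normal sodium with AngII (adjusted p = 0.297, limma). The Ddc levels of these groups did not overlap, at 2.24, 2.25 and 2.29 on low sodium against 2.07, 1.68 and 1.68 on normal sodium. Ddc had 2 tested probes, and these are values of the brighter one. In that comparison 3 of the 12 tested genes of this list had separated groups, beside 22.2% of all probes. Of the 12 tested genes of this list 7 were higher and 5 lower in that comparison, with 0 called.

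Aldh2, which oxidises the aldehydes that monoamine oxidase makes, gave 0.22 ± 0.15 for low sodium without AngII. In the list of 8 other breakdown enzymes 5 were higher and 3 lower in each of the low sodium comparisons, and 1 was higher and 7 lower for AngII on low sodium.

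Downstream of the receptors, the G protein gene Gnas, the cyclase genes Adcy5 and Adcy6, the receptor kinase genes Grk2 and Grk5, Arrb1, Plcb1, Rgs2 and the phospholamban gene Pln gave no call in any comparison. Mean low sodium effects were -0.06 ± 0.09 for Gnas, -0.21 ± 0.21 for Adcy5 and 0.23 ± 0.12 for Adcy6. Pde4d, a phosphodiesterase that breaks down cAMP, gave 0.53 ± 0.19 for low sodium without AngII and 0.21 ± 0.19 with AngII. Without replicate 1 of normal sodium, the array with most non-uniform spots, the first was 0.28. Prkaca, the catalytic subunit of protein kinase A, gave a mean low sodium effect of 0.25 ± 0.12.

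In all, 78 of 89 listed genes in 8 lists were tested and 0 were called in any comparison. For AngII on normal sodium 45 were higher and 33 lower (median 0.04), for AngII on low sodium 31 and 47 (-0.03), for low sodium without AngII 44 and 34 (0.03), and for low sodium with AngII 35 and 43 (-0.04). At an unadjusted p under 0.05 (limma) there were 3, 4, 9 and 11 of the 78 genes. The shares of all probes were 7.26%, 1.71%, 7.03% and 11.1%. Groups were separated for 6 of 77, 4 of 78, 9 of 77 and 18 of 78 genes, beside the 13.0%, 6.12%, 10.9% and 22.2% of all probes.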

How the data were processed

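Left ventricular RNA, labelled with Cy3, was hybridised to 12 Agilent arrays, and the labels put 3 of them in each of 4 groups. The deposited scanner output gives spot intensity, background-subtracted and detrended by Feature Extraction 10.7.3.1 per the file headers; the submitters' processing notes name Feature Extraction 11.0.1.1, R 3.3.04 and limma. The authors also deposited a matrix of log2 values (20438 probes), and each of its columns followed the scanner values of its array (Spearman's rho 0.996 to 0.999 across probes). Its normalisation is not given in the sources used here. The deposited files also hold other columns of 0 or 1 spot flags, and no spot was saturated.

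From the scanner intensities, 1377 control spots and outlier-flagged spots (296 to 421 per array) were left out, spots of a probe were averaged, and each array's 75th percentile was subtracted from its log2 processed signals. A probe was tested where at least 0.5 of its spots were well above background on all 3 arrays of 1 group, which left 20020 of 30367 probes. Names came from RefSeq's gene list (GRCr8): 18758 probes had 1 symbol, 0 had several and 11609 had none. A listed gene with several probes was valued by its brightest tested one; the 7 genes have 1 probe each. limma 3.58.1 in R 4.3.3 fitted 1 mean per group over 12 arrays, with p-values adjusted over all probes at 0.05, two-sided. The interaction subtracts the AngII difference at normal sodium from the one at low sodium.

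The p-values measure the spread between these arrays; their number limits precision, and separate animals are not stated beyond the sample labels. On simulated data 100 probes were changed per size, for AngII on normal sodium over 19960 probes. The fit recovered 64 at a log2 change of 1 and 95 at 2, with 4 false calls. The simulated noise was normal and independent between arrays, without values shared within a slide. Both sizes were above the largest difference of the 7 genes in the fit as reported, 0.75. The recovered counts therefore do not give the power for these genes. Alternatives were normexp with offset 50 (on median spot signal, as the mean was not used here), quantile normalisation, the authors' values, no filter on dim probes, array weights, slide as a block, outlier spots kept, and each array left out. Genes named beyond the 7 were a written list of 26 pathway genes and, for each member, the 3 genes of highest Pearson r. The members and all lists were chosen with earlier results of these data known. Results of some single genes are left out.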

Additional observations from a re-analysis of the deposited data

Results flagged for a closer look

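Rnls was the member that met a rule for a closer look. Its low sodium effect had opposite signs without and with AngII on every slide, at 0.31 without AngII (0.309) and -0.40 with AngII. Of 19960 probes, 783 (3.92%) did so. The difference between these effects, the interaction in the limma fit, was -0.71 ± 0.17. Because Rnls was chosen for its AngII difference on normal sodium, which enters this interaction, the value is a description with no test. Groups of 3 arrays were not searched for single outlying values.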

How the results depend on the processing

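No probe was called in the fit as reported. Normexp correction called 6 probes for AngII on normal sodium, 3 for low sodium with AngII and 4 for the mean low sodium effect. Quantile normalisation called 1 for low sodium with AngII, the authors' values 5 for AngII on normal sodium and 1 for low sodium with AngII, and no filter on dim probes 1 for the mean low sodium effect. Array weights called 8 for low sodium with AngII and 81 for the mean low sodium effect, with 1 gene of the pathway lists among the latter. Leaving out each array gave 0 to 9 calls for AngII on normal sodium, 0 to 1 for low sodium without AngII, 0 to 3 for low sodium with AngII and 0 to 20 for the mean low sodium effect. The highest counts came when low sodium replicate 1 was left out (9), and when replicate 1 (3) or replicate 2 (20) of normal sodium was. AngII on low sodium, the mean AngII effect and the interaction gave 0 throughout. None of the 7 genes was called under any alternative. The cause of these changes was not tested.

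Arrays with the same replicate number share a slide. After group means were removed, 17 of 18 same-numbered pairs correlated above 0.1 (0.0469 to 0.432). The median was -0.181 for pairs that differed in both number and group. With group means removed, the values of a group sum to 0, so these correlations depend on each other. With the replicate number as a block, 0 probes were called in each comparison. Each slide holds 1 array of every group, so the block leaves the differences as they are and changes only their errors.

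Of 49 differences of the 7 genes, those moved by over 1 within-group SD were 4, all in the authors' values: Rnls for AngII on normal sodium (0.91), low sodium without AngII (0.44) and the interaction (-0.86), and Adrb1 for low sodium without AngII (0.32). Of the 49, 9 changed sign in the authors' values, 8 under normexp, 7 under array weights and 3 under quantile normalisation. With 1 array left out, 49 of 588 values changed sign.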
